A study of Mus musculus with 2 samples.

Results

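The 80 genes described here encode the proteins of the cytosolic ribosome. They were taken from 21851 protein-coding gene models of the GENCODE M21 annotation by their symbols (Rpl or Rps with a number, Rplp0, Rplp1, Rplp2 and Rpsa), leaving out one-exon genes and Rpl3l, a paralogue known from striated muscle. Of these, 49 encode proteins of the large (60S) subunit or their paralogues and 31 encode proteins of the small (40S) subunit or their paralogues. DNase-seq, which maps chromatin open to cutting by the nuclease DNase I, was carried out on tissue labelled layer of hippocampus. It came from male B6CASTF1/J mice, the F1 hybrids of a C57BL/6J and a CAST/EiJ parent, aged 8 to 10 months. The 2 samples form 1 group with no treatment or genotype contrast. Each is a pool of 2 biosamples, and both carry the same donor label, so the spread between them may be technical in part. With 1 group there was no comparison between conditions and no test, and values are given for both replicates.

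A ribosome holds about equal numbers of each of its proteins, and their genes are scattered over the genome rather than grouped in an operon. The promoters are known for high and near-universal activity, for CpG-rich sequence with binding sites of general factors such as ETS proteins, YY1 and SP proteins, and for transcripts that begin with a run of pyrimidines, the 5′ terminal oligopyrimidine tract, through which mTOR signalling controls their translation. In neurons, ribosomal proteins are also known to be made from mRNAs located in dendrites and axons. The members lay on 19 chromosomes, with 14 on chromosome 7 and 4 on the X chromosome (Rpl10, Rpl36a, Rpl39 and Rps4x).

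A promoter was called open where a peak of the authors' longer list lay within 1000 bp of the start of a protein-coding transcript. In each replicate 79 of the 80 members had such a peak, and the same 79 (98.8%) had one in both. Over all protein-coding gene models the share was 64.9% in replicate 1, 63.7% in replicate 2 and 62.6% in both. The lists held 144270 peaks in replicate 1 and 124426 in replicate 2. The tissue label was set against marker genes: 6 of 6 markers of excitatory neurons and hippocampus had a promoter peak in both replicates, as did 3 of 4 oligodendrocyte, 3 of 4 astrocyte, 1 of 4 microglial, 1 of 3 endothelial and 1 of 3 choroid plexus markers and 0 of 4 markers of other tissues. Counted in replicate 1 by itself, 3 of 4 microglial, 2 of 3 endothelial and 2 of 3 choroid plexus markers had a promoter peak. The other marker counts were the same there. The members' signal was not separated by cell type. In a bulk sample, fewer open cells and less cutting per cell cannot be told apart.

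The one member without a promoter peak was Rpl39l, a paralogue of Rpl39 known from the testis. The closest peak was 22553 bp away in both replicates, and the closest footprint 22601 bp away in replicate 1 and 22599 bp in replicate 2. Within 1000 bp of its starts, 0 bases were listed at a false discovery rate of 0.05 or less in either replicate. The file lists only such bases, so a weaker signal there would not be seen.

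Peak height, the value the authors gave each peak on a scale the files do not state, was taken from the tallest promoter peak of each gene. The median over the 79 open members was 6.43 in replicate 1 and 5.25 in replicate 2, against 3.59 and 2.89 over the 13679 coding genes open in both replicates. As the mean of both replicates, members ranged from 1.96 to 14.9 with a median of 6.08 (quartiles 4.26 and 7.78), against a median of 3.26 over all open coding genes. Of the 79, 19 (24.1%) reached 8.07 or more, the level that 10.0% of open coding genes reached. At the very top the members' share was close to that of all open coding genes: 1 (1.27%) was among the 100 tallest promoters, which make up 0.731% of open coding genes, and 4 (5.06%) were among the 500 tallest, which make up 3.66%. Below the median of open coding genes lay 10 members. The subunits had close medians, 5.77 over 48 open 60S members and 6.17 over 31 of the 40S.

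**Figure D1:**
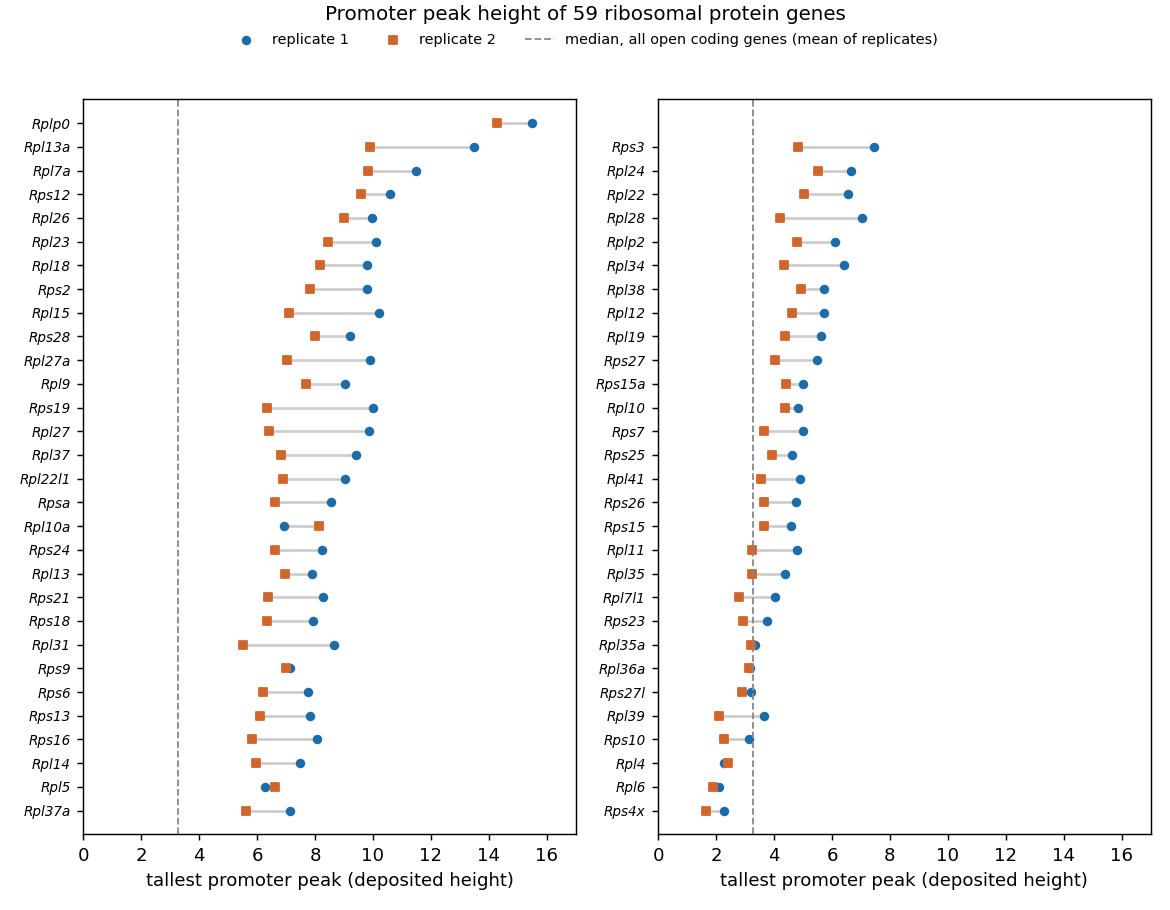
Height of the tallest promoter peak (horizontal axis, the authors' value, scale not stated) for the 59 open members with an entry in the RefSeq promoter table, ordered by mean height down the left panel and then the right; circles are replicate 1, squares replicate 2, and the dashed line is the median of all open coding genes, 3.26. Rplp0 stands alone at 15.5 and 14.3, and Rps4x is lowest at 2.28 and 1.64.

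The tallest promoter was that of Rplp0, the base of the ribosomal stalk that recruits elongation factors, with heights of 15.5 and 14.3 (14.9 ± 0.830, SD, n = 2). It was higher than 99.8% of open coding genes. Rpl13a, a 60S protein also known as a translational silencer after interferon, came next with 13.5 and 9.89, both below the lower value of Rplp0. Rpl7a, a 60S protein, had 11.5 and 9.82. Rps12 of the 40S subunit had 10.6 and 9.59. Rpl7a and Rps12 differed by less than the spread between replicates, though Rpl7a was higher in both. Rpl26, which lies at the exit of the peptide tunnel, had 9.98 and 9.00, and Rpl23 had 10.1 and 8.46. Rps29, a 40S protein mutated in inherited anaemia, had 9.53 and 8.47. Rpl18 had 9.79 and 8.17.

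Promoter stretches are shown for the tallest members that have an entry in the RefSeq promoter table (GRCm38.p6, which shares its chromosomes with mm10). The table matched 60 of the 80 members. Those not in it included Rpl7, Rps20, Rpl21, Rpl32, Rplp1, Rpl29, Rps27a, Rpl23a, Rps29, Rpl30, Rpl8, Rpl3, Rpl36, Rps14 and Rpl17. Each stretch runs 5′ to 3′ on the strand of the gene from 100 bases before to 15 bases after the most upstream annotated start among the RefSeq start nearest the peak and any GENCODE start within 150 bases upstream of it, and capitals mark bases inside a footprint of both replicates, that is, a short protected stretch within the open region.
Rplp0 (chr5:115559367-115559481, plus strand): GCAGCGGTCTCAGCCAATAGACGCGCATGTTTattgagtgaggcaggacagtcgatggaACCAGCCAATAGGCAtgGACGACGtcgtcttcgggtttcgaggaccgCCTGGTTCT
Rpl13a (chr7:45128747-45128861, minus strand): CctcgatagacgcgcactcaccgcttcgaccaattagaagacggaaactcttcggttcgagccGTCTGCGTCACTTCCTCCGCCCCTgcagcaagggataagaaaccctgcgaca
Rpl7a (chr2:26910664-26910778, plus strand): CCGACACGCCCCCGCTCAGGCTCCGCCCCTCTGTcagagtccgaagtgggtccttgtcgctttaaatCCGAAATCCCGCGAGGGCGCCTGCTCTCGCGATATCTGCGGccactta
Rps12 (chr10:23787261-23787375, minus strand): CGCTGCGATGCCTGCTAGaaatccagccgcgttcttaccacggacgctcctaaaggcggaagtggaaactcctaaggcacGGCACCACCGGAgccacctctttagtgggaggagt
Rpl26 (chr11:68901466-68901580, plus strand): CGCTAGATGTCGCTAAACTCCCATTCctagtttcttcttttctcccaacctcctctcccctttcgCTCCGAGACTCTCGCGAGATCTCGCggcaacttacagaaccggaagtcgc
Rpl23 (chr11:97782425-97782539, minus strand): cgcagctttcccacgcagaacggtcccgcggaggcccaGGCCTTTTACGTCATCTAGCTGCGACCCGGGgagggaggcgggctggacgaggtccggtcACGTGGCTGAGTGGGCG
Footprints of both replicates covered 75 of the 115 bases printed for Rpl7a, 63 for Rplp0, 51 for Rpl26, 48 for Rpl23, 30 for Rps12 and 25 for Rpl13a. Height and protected length within the printed bases thus followed different orders among these 6, whose peaks extend beyond these bases. The Rplp0 stretch holds the letters CCAAT 2 times, both in capitals.

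For contrast, the same stretch of Rpl39l holds no capitals, since no footprint reached it.
Rpl39l (chr16:10170126-10170240, plus strand): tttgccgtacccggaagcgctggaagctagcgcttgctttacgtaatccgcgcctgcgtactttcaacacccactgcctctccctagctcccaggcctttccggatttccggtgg
The stretch holds an exact ETS match, CCGGAAG, with its first base 90 bases before the annotated start.

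At the low end stood Rps4x, the X-linked copy of a 40S gene that has a Y-linked partner in humans but not in mice, with 2.28 and 1.64. Rpl6, a 60S protein, had 2.11 and 1.88. Rpl4, a 60S protein that reaches into the peptide tunnel, had 2.27 and 2.40, from a peak whose midpoint was at -464.5 and -454.5 bp from its own start (negative is upstream) and which also holds a start of Zwilch. Rps10, Rpl32, Rpl39, Rps27l, Rpl36a and Rpl23a were also among the 10 lowest, with means from 2.70 to 3.20. All 10 lay below the median of open coding genes, and even Rps4x, the lowest, was above 31.9% of them. Rpl6 and Rps4x overlapped each other, as did Rps10 and Rpl32.

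The 4 X-linked members had mean heights of 1.96 (Rps4x), 2.87 (Rpl39), 3.14 (Rpl36a) and 4.60 (Rpl10), with a median of 3.01 against 6.17 over the 75 autosomal members. Rpl10, whose protein joins the 60S subunit late in its assembly, had 4.82 and 4.39, above both values of each of the other 3. Males carry 1 X chromosome, and open coding genes on the X as a whole had a median of 1.73 (n = 462). The X-linked members were thus low among ribosomal protein genes and above the median of open X-linked genes. Whether copy number sets these values was not tested.

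Pairs of paralogues were compared next, since only 1 member of some pairs is broadly expressed. Rpl22 had 6.55 and 5.03 and its paralogue Rpl22l1, which is known to take its place in the 60S subunit, had 9.04 and 6.90, higher in both replicates and with no overlap. Rps27 had 5.49 and 4.02 and Rps27l had 3.20 and 2.89, with no overlap. Rpl7 had 4.20 and 3.47 and Rpl7l1 had 4.02 and 2.80, which overlap, though Rpl7 was higher in both replicates. Rpl39 had 3.66 and 2.09, and Rpl39l had no peak. Among paralogues left out by the rule, Rpl36al was open with 10.1 and 6.70, higher in both replicates than its X-linked relative Rpl36a with 3.15 and 3.14. Rpl3, the 60S protein near the catalytic centre, had 8.93 and 7.79, while Rpl3l had no promoter peak, the nearest lying 3260 bp away in both replicates. Rpl10l, a one-exon copy of Rpl10 known from the testis, had none either, with the nearest at 24410 bp in replicate 1 and 24396 bp in replicate 2. The 3 paralogues without a promoter peak were thus Rpl39l, Rpl3l and Rpl10l.

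Some proteins work in small assemblies. In the stalk, Rplp0 at 14.9 was far above its partners Rplp1 (7.28 and 5.62) and Rplp2 (6.09 and 4.78), the small acidic proteins it holds, and Rpl12 (5.71 and 4.60) at its base. Across replicates the values of Rplp2 overlapped those of Rplp1 and Rpl12, and only Rplp0 stood apart. Within each replicate the order was the same, with Rplp1 above Rplp2 and Rplp2 above Rpl12. Rpl5 and Rpl11, which bind 5S RNA and, when free, inhibit the p53 regulator MDM2, had 6.26 and 6.61 against 4.79 and 3.24, with no overlap. The 9 listed genes around the exit of the peptide tunnel ranged from 2.87 (Rpl39) to 9.49 (Rpl26), with a median of 5.33. Genes mutated in Diamond-Blackfan anaemia had medians of 6.17 (9 of the 40S list, led by Rps29 at 9.00, Rps28 at 8.60 and Rps19 at 8.19) and 7.61 (8 of the 60S list, led by Rpl26 at 9.49, Rpl18 at 8.98 and Rpl15 at 8.67), all of them open.

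Replicate 2 gave lower heights for 73 of the 79 open members. The 6 that were higher in replicate 2 included Rpl10a, Rpl5, Rpl36, Rpl23a and Rpl4. After both replicates were scaled so that the median log2 ratio of all 101938 paired peaks was 0 (the shift was -0.19), 60 members (75.9%) remained lower in replicate 2, against 71.1% of open coding genes. The median scaled log2 difference was -0.13 over members and -0.14 over all open coding genes, and the members' share of lower values lay near the background. All 79 were within 2-fold and 55 (69.6%) within 1.2-fold, against 99.9% and 63.9% of open coding genes. The largest differences toward replicate 1 included those of Rpl39 (-0.62), Rpl28 (-0.56), Rps19 (-0.47) and Rpl31 (-0.47), each on the scaled log2 scale. Toward replicate 2 they included Rpl10a (0.42), Rpl23a, Rpl4 and Rpl5 (0.27 each).

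**Figure D2:**
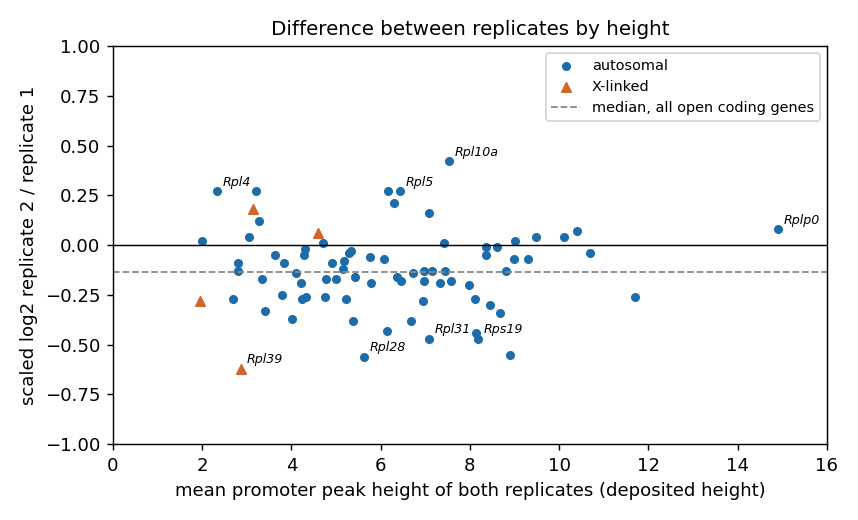
Scaled log2 ratio of replicate 2 to replicate 1 (vertical axis) against mean height (horizontal axis, the authors' value) for the 79 open members; triangles are X-linked, the dashed line is the median of all open coding genes, -0.14. All members lie within 1 log2 unit of 0, from -0.62 (Rpl39) to 0.42 (Rpl10a).

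The peaks were short and close to annotated starts. Median length was 220 bp in replicate 1 and 240 bp in replicate 2, as for all open coding genes (240 bp in both). The midpoint of the tallest peak lay a median of 53.5 bp (replicate 1) and 56.5 bp (replicate 2) from the reference start, the start of the principal transcript, against 94.5 and 96.5 bp over all open coding genes. Among the 3580 other coding genes with mean heights between the members' quartiles, the median distance was 73.5 bp in both replicates. Midpoints lay upstream of the reference start in 49 members (62.0%) in replicate 1 and 47 (59.5%) in replicate 2, against 66.9% and 65.9% of open coding genes. The tallest peaks overlapped between replicates in 78 members (98.7%, against 95.8%) and were identical in 22 (27.8%, against 24.3%). The exception was Rpl7, a 60S protein, whose tallest peaks were 120 bp apart, one upstream and one downstream of the start.

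In 3 of 79 members the peak was centred over 500 bp from the reference start in both replicates, against 17.1% of open coding genes in replicate 1 and 17.6% in replicate 2. For Rpl18 it lay 2583.5 bp downstream in both replicates and at -30.5 bp from another annotated start. For Rps14, lost in the human 5q- syndrome, it lay at -1838.5 and -1748.5 bp, and at -195.5 and -105.5 bp from another start. For Rpl35a it lay at -567.5 and -637.5 bp, and at -2.5 and -72.5 bp from another start. No member's peak was over 500 bp from the nearest of its annotated starts in either replicate.

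At the reference start, bases at a strict false discovery rate were listed in a larger share of members than of all open coding genes. The shares by position were not computed over genes of like height. At the start itself 97.5% of members in replicate 1 and 96.2% in replicate 2 had a false discovery rate of 0.001 or less, against 80.2% and 77.5% of open coding genes. At 500 bp upstream the shares were 24.1% and 21.5% for members and 25.4% and 22.4% for open coding genes. At 500 bp downstream they were 36.7% and 44.3% against 33.9% and 28.0%. The length listed at 0.05 or less within 1000 bp had a median of 1018 bases for members in both replicates, against 1002 and 931 over open coding genes and 1138 and 1064 over those of like height. Members had a median of 464 and 466 listed bases upstream of the start and 585 and 603 downstream. Over genes of like height the medians were 500 and 473 upstream and 614 and 558 downstream, so the downstream side was the longer in both sets.

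**Figure D3:**
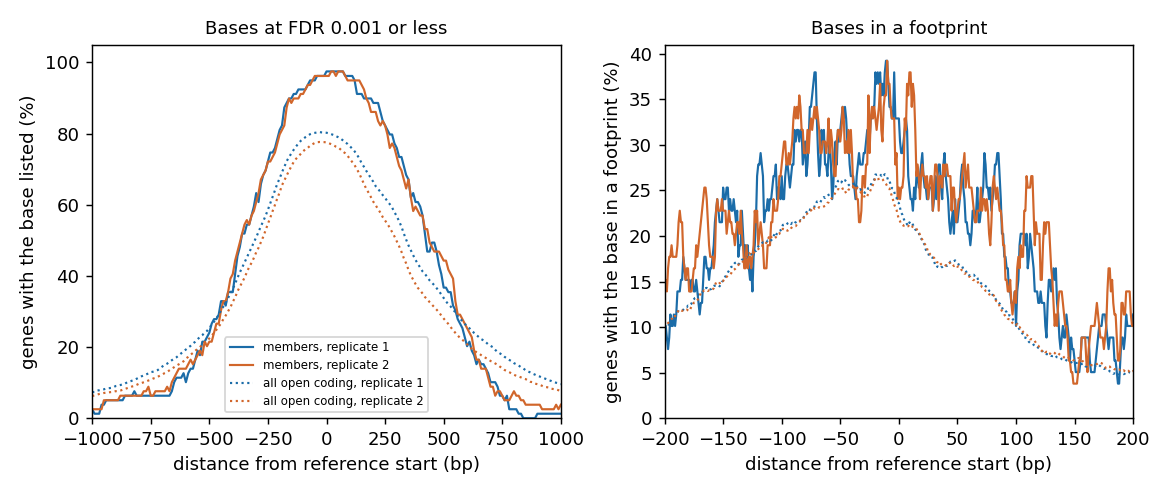
Left, share of genes (vertical axis, percent) whose base at each distance from the reference start (horizontal axis, bp) has a false discovery rate of 0.001 or less; right, share whose base lies in a footprint; solid lines are the 79 open members, dotted lines all 13679 open coding genes, by replicate. Members exceed open coding genes at the start, 97.5% against 80.2% in replicate 1, and meet them near 500 bp upstream.

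Footprints were counted from 250 bp before to 50 bp after the reference start. At least 1 was present in both replicates in 72 of 80 members (90.0%), against 49.6% of all coding genes. Among open genes alone it was 72 of 79 (91.1%) against 79.2%. The mean number over the 80 members was 3.91 in replicate 1 and 4.21 in replicate 2, above the 3.53 and 3.54 of open coding genes and below the 4.55 and 4.60 of genes of like height. Rpl34, Rps26, Rpl27 and Rpl19 were among those with the most in both replicates: Rpl34 had 8 and 7, Rps26 had 8 and 7, Rpl27 had 8 and 6, and Rpl19 had 6 and 7. In 4 members there was no footprint in either replicate: Rpl39l, Rps14, Rpl35a and Rps25. The last 3 have peaks centred 371.5 bp or more from their reference starts.

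Inside the tallest peaks the members held a median of 5 footprints in each replicate, as did all open coding genes. Footprints covered a median of 32.1% and 31.2% of the peak, against 28.5% and 28.2% over open coding genes and 35.5% in both replicates over genes of like height. Rplp0 was the most covered member, at 62.7% and 67.3%. Of the members' footprints 82.8% of 378 in replicate 1 and 76.1% of 414 in replicate 2 overlapped one of the other replicate, against 71.1% and 70.9% over open coding genes. Their median length was 13 bp, against 12 bp. The longest were in Rps7 (54 bp, replicate 1), in Rpl26 (53 and 52 bp) and in Rpl5 (50 and 49 bp), the last 2 found in both replicates. Averaged over the 50 bases before the start, 32.4% and 30.5% of members were protected at a base, against 25.7% and 25.1% of open coding genes. Neither this share nor that of overlapping footprints was computed over genes of like height.

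Exact matches to 12 short motifs were sought on both strands in the same window, in the 60 members and in the 16530 coding genes with a table entry, of which 10710 were open. The 60 members include Rpl39l, which was not open. Matches of different motifs could overlap. The ETS letters CCGGAAG were found in 20 members (33.3%), against 16.8% of open and 11.9% of all coding promoters. The letters CTCGCGAG, bound by BANP, were found in 6 members (10.0%), against 1.80% and 1.25%. AAGATGG, part of the YY1 motif, was in 9 members, against 7.11% and 6.45%, ACTACAA, part of the ZNF143 motif, in 6 (10.0%, against 4.33% of open promoters), and the CRE letters TGACGTCA in 4 (6.67%, against 3.34% and 2.46%). The SP/KLF letters GGGCGGG were the most frequent, in 23 members, at 38.3%, against 46.7% of open and 34.4% of all coding promoters. Some of these gaps depended on the window. With 500 bp to each side SP/KLF was at 66.7% in members and 66.5% in open promoters, and around the RefSeq start, a window added after the data were seen, at 46.7% and 48.3%. ZNF143 was in 3 of 60 members around the RefSeq start, against 4.22% of open promoters. With 500 bp to each side ETS was in 27 of 60 members (45.0%, against 27.8%) and BANP in 9 (against 3.17%). Around the RefSeq start ETS was in 24 (against 17.5%) and BANP in 7 (11.7%, against 1.87%). The other 6 were NRF1 (GCATGCGC, 3.33% against 5.29% of open promoters), the TATA box core (letters TATAAA, 8.33% against 7.03%), NFY (CCAATCA, 6.67% against 10.3%), E-box (CACGTG, 11.7% against 9.79%), REST (CAGCACC, 6.67% against 7.45%) and RFX (GTTGCCA, found in 0 of 60 members against 4.08%).

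**Figure D4:**
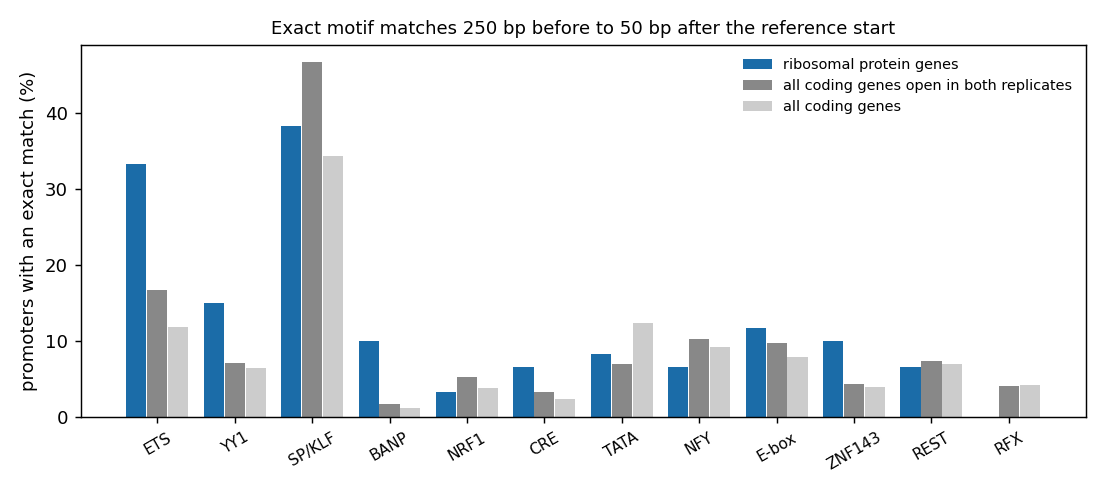
Share of promoters (vertical axis, percent) with an exact match to each motif (horizontal axis) from 250 bp before to 50 bp after the reference start, for 60 members, 10710 open coding genes and 16530 coding genes. ETS stands at 33.3% against 16.8% and BANP at 10.0% against 1.80%, while SP/KLF stands at 38.3% against 46.7%.

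Among members, 9 of 25 ETS matches (36.0%), counting those in Rpl39l, which was not open, had their centre in a footprint of both replicates. Over open coding promoters it was 23.8% of the matches. For SP/KLF it was 16 of 28 (57.1% against 45.4%) and for BANP 3 of 6 (42.0% in open promoters). For CRE it was 3 of 4 (76.5% in open promoters) and for NRF1 4 of 4, an overlapping pair each in Rpl10a and Rpl37a (74.7% in open promoters). For TATA it was 5 of 7 (71.4% against 6.68%), in Rplp0, Rps28, Rps2 and, with 2 overlapping matches, Rpl22l1. Of these only the match in Rps2 began upstream of the reference start, by 30 bases, and it lay downstream of its RefSeq start. Those of the other 3 began 18 to 45 bases downstream of the reference start. For Rpl22l1 the RefSeq start lies 72 bases downstream of the reference start, so its 2 matches lay upstream of the RefSeq start. The stretches below are printed because a whole match lies in capitals.
Rps21, ETS (chr2:180257277-180257391, plus strand): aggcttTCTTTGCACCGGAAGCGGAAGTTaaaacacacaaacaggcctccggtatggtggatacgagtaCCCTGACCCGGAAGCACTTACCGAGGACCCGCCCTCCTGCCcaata
Rpl11, ETS (chr4:136053379-136053493, minus strand): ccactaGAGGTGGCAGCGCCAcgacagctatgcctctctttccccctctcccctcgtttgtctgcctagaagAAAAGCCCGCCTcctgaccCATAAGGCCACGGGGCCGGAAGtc
Rps6, BANP (chr4:86857398-86857512, minus strand): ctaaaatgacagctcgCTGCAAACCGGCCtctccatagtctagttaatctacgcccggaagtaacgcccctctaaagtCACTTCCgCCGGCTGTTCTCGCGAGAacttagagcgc
Rpl13, CRE (chr8:123102250-123102364, plus strand): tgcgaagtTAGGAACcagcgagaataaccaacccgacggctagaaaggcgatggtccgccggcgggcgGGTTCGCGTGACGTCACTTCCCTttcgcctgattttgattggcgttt
Rpl27a, CRE (chr7:109519047-109519161, plus strand): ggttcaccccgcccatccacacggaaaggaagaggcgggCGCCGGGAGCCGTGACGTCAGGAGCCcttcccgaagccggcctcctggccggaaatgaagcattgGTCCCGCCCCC
Rps9, CRE and ZNF143 (chr7:3703893-3704007, plus strand): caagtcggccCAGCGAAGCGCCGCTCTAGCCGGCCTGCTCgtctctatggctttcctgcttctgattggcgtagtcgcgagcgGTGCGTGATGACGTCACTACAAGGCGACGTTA
Rps21 holds 2 ETS matches in capitals, with first bases 86 and 24 before the annotated start, and an SP/KLF match 4 before it. In Rpl11 the ETS match begins at base 7 after the start. In Rps6, the protein phosphorylated by S6 kinase, the BANP letters begin 5 bases before the start, and an ETS match 46 before it lies outside capitals. Rpl26, printed above, holds the BANP letters in capitals 25 bases before its start. The CRE letters begin 24 bases before the start in Rpl13, 49 in Rpl27a and 9 in Rps9, where they share 1 base with the ZNF143 letters.

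A pyrimidine tract at the start was defined as a C at the start followed by bases that bring the run of C or T to at least 5. At the reference start 6 of 60 members had one (10.0%), against 2.14% of open coding genes. At the RefSeq start, which equals the reference start in only 12 of the 60, it was 12 members, against 2.26%. This use of the RefSeq start was chosen after the data were seen. Within 25 bases of the reference start the longest run of C or T had a median of 7 in members and 5 in open coding genes. Runs of 8 or more were present in 43.3% against 17.7%. Of the 12 with a tract, 5 are shown from 15 bases before the RefSeq start through base 15, with the tract in capitals.
Rpl15 (chr14:18270972-18271001, minus strand): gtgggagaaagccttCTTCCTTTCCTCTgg
Rpl35 (chr2:39005117-39005146, minus strand): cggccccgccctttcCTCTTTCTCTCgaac
Rps10 (chr17:27635230-27635259, minus strand): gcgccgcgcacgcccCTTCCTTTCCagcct
Rps18 (chr17:33955651-33955680, minus strand): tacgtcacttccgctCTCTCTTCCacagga
Rps6 (chr4:86857353-86857382, minus strand): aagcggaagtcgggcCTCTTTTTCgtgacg
The tract measures 13 bases in Rpl15, 11 in Rpl35, 10 in Rps10 and 9 in Rps18 and in Rps6, the longest of the 12. The other 7 were Rpl14, Rpl28, Rpl38, Rplp2, Rps15a, Rps21 and Rps27, with 5 to 8 bases. These members were not the tallest: Rpl15 had a mean height of 8.67 and Rps10 of 2.70. Over 500 bp to each side of the reference start, members had a median ratio of observed to expected CpG of 0.798, against 0.725 over open and 0.588 over all coding genes. Their median GC content was 57.2%, against 59.2% and 55.6%.

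Gene structure differed from the rest of the genome. Open members had a median length of 3289 bp, against 25530 bp over open coding genes. Of the 80, 29 (36.2%) held at least 1 snoRNA gene, a guide RNA of rRNA modification spliced from introns, on the same strand, against 1.17% of coding genes. They held 56 in all, with 5 in Rpl4 and 4 in Rpl13a. Hosts had a median height of 6.43 (n = 29) and other open members 5.71 (n = 50), and hosts were found both among the tallest (Rpl13a) and the lowest (Rpl4). In 12 of 79 (15.2%) the tallest peak also held the start of another protein-coding gene, against 12.6%. These were Rpl12 with Lrsam1, Rpl15 with Nkiras1, Rpl18 with Sphk2, Rpl4 with Zwilch, Rpl7a with Med22, Rpl9 with Lias, Rps10 with RPS10-NUDT3, Rps18 with Vps52, Rps25 with Trappc4, Rps27 with Rab13, Rps27a with Clhc1 and Rps28 with Ndufa7. For them the signal of the genes cannot be told apart. Members sharing a peak had a median of 6.15 and members alone 6.08. In the gene body and 10000 bp to each side, members had a median of 1 peak away from coding promoters in each replicate, against 3 and 2 over open coding genes, which are longer. Per 10000 bp the medians were 0.427 and 0.432 in members and 0.522 and 0.435 over open coding genes.

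Other genes of translation were taken from lists made with earlier results of these data known. All 38 genes on a list of elongation and initiation factors, which also holds Pabpc1, Tpt1, Naca and Btf3, were open. Their median height was 6.23, close to the members' 6.08. They were led by Eif4a1 (16.7 and 14.1), the RNA helicase of initiation, Eif5a (15.7 and 11.2) and Eif1 (12.9 and 9.86). Fau (10.2 and 6.78), outside the rule, encodes a ribosomal protein fused to a ubiquitin-like protein and was above the members' median. Mrpl49, counted among the mitochondrial ribosomal proteins, had the same heights in both replicates, so the signals of these genes were not told apart. The 40S-bound scaffold Rack1 (3.91 and 3.58) was below the members' median. All 34 ribosome biogenesis genes were open with a median of 4.78, led by Nop14 (13.5 and 10.5), Nop56 (11.8 ± 0.274, SD, n = 2) and Npm1 (12.8 and 9.29). All 14 listed genes of RNA polymerase I, which transcribes rRNA, and its initiation factors (such as Ubtf, Rrn3 and Taf1a) were open with a median of 4.03, led by Polr1d (9.26 and 6.52), Twistnb (7.85 and 7.84) and Znrd1 (6.20 and 5.99). All 78 mitochondrial ribosomal proteins were open with a median of 4.05, led by Mrpl17 (16.9 and 14.4), Mrpl18 (13.5 and 9.41) and Mrps18b (12.5 and 10.0). The list of 25 regulators includes Rps6, which is itself a member. Of the 25, 24 were open in both replicates, with a median of 6.10. They were led by Zfp143 (18.1 and 15.1), the mouse ZNF143, Sp1 (16.6 and 9.97) and the S6 kinase gene Rps6kb1 (11.8 and 9.37). Eif4ebp1, a translational repressor under mTOR, had a peak of 1.21 in replicate 1 and none in replicate 2, where the nearest lay 1012 bp away, just outside the window.

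**Figure D5:**
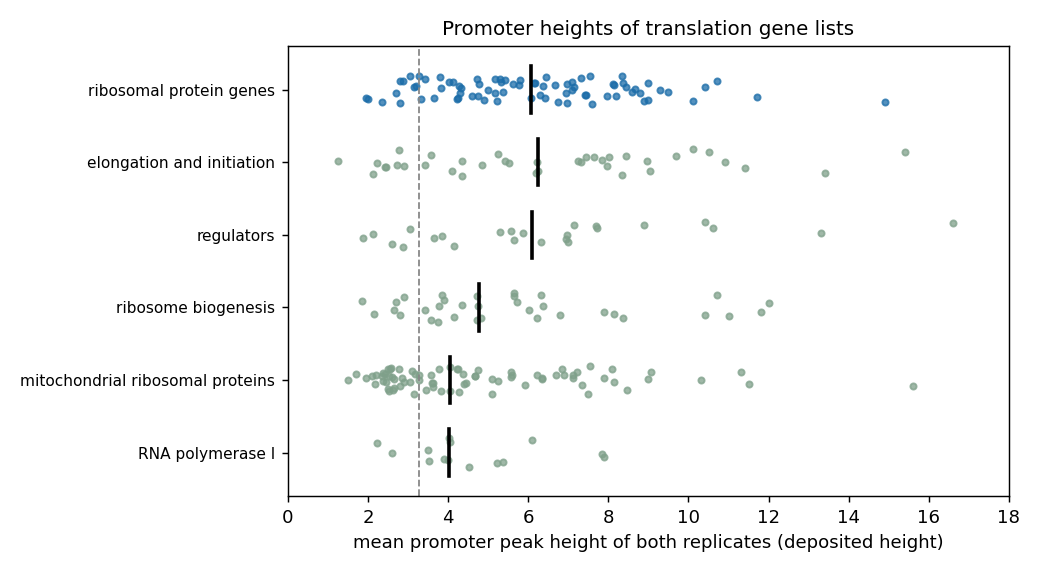
Mean promoter height of both replicates (horizontal axis, the authors' value) for genes open in both, by list; each point is a gene, the black bar is the list's median and the dashed line the median of all open coding genes, 3.26. The cytosolic ribosomal protein genes (6.08) lie near the list of elongation and initiation factors (6.23), and the mitochondrial ribosomal protein genes (4.05) lie lower. The elongation and initiation list also holds Pabpc1, Tpt1, Naca and Btf3. Rps6 is plotted both as a member and among the regulators.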

How the data were processed

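DNase-seq of tissue labelled layer of hippocampus was deposited as 2 samples. Per the labels they are biological replicates 1 and 2 of 1 group, and the assembly is mm10. The authors deposited, per sample, 2 peak lists with a height for each peak (unit signal, scale not stated), a list of footprints whose value column is the constant 0.01 and was not used, and a file of false discovery rates (q-values) that lists only intervals at 0.05 or less. Per the files' notes, peaks and rates came from filtered alignments and footprints from alignments and rates. No source used here names the aligner, the callers, their versions or the total reads per sample. Mapping of CAST/EiJ reads, and of reads that match both a gene and its processed copies, was not analysed here.

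From these files the tallest peak of the longer list overlapping 1000 bp to each side of any protein-coding start was taken, by 1 bp or more. The reference start was that of the best APPRIS transcript, then the best supported, then the longest. Replicate heights were scaled to the median log2 ratio of peaks that were each other's best overlap. Footprints were assigned by midpoint. Promoter sequence came from RefSeq (GRCm38.p6). Python 3.11.15 with numpy 2.4.6, pandas 2.3.3, pysam 0.24.0 and matplotlib 3.10.9 was used, and the functions were tested on simulated data. The members and lists were chosen with earlier results of these data known. Genes named were the 10 tallest and 10 lowest members, those without a peak, X-linked genes, paralogue pairs, stalk and 5S proteins, the 5 largest replicate differences each way, the 5 with most footprints, those with distant peaks, and up to 3 per other list. Genes with a tract, a shared peak or snoRNA genes were named after their values were seen. Values of some members and listed genes are not reported here. No test was made, since there is 1 group. Windows, peak lists, starts and single replicates were varied.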

Additional observations from a re-analysis of the deposited data

How the results depend on the processing

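Of 60 recomputed values, 49 stayed within the limit set for them. The limit was the spread between replicates, 1.5 times for counts, and 0.1 log2 for the difference between replicates. Beyond it 10 moved and 1 crossed 0, the difference scaled to all protein-coding promoters. All 79 members were open under every window, list and start tried. The median height without 1 replicate was 5.25 or 6.43. The median log2 difference between replicates was -0.32 with no scaling and 0.00 when scaled to all protein-coding promoters, the latter because members moved like other promoters. The mean number of footprints was 7.95 within 1000 bp to each side, 3.06 for those shared with the other replicate and, an alternative chosen after seeing the data, 4.95 inside the tallest peak. Leaving out 1 replicate gave 3.91 or 4.21. The median distance was 40.5 bp to the nearest start of a gene and, chosen after seeing the data, 49.5 bp to the nearest RefSeq start. With 500 bp to each side, YY1 was found in 18 of 60 members (against 19.0% of open promoters) and SP/KLF in 40 (66.7%, against 66.5%). Start tracts were in 12 members at the RefSeq start. The cause of these shifts, other than the larger window or stricter overlap itself, was not tested. No paired analysis was possible because the 2 samples are 1 group. Heights carry no count, so depth could not be set against any value.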

Other observations

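Processed copies of ribosomal protein genes, pseudogenes left by reverse transcription, are spread over the mouse genome. Of 294 annotated by name, 14 (4.76%) had a peak within 1000 bp of their 5′ end in both replicates, against 5.04% of all 10236 processed pseudogenes. The tallest was Rpl38-ps1 with 4.92 and 3.86 (4.39 ± 0.746, SD, n = 2), then Rpl29-ps2 with 5.26 and 3.50, which lies near a protein-coding start, and Rpl34-ps1 with 2.12 and 2.31. The median height of the 14 was 0.861, against 0.679 over the open ones among all processed pseudogenes. The members' own median was 6.08.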
